A study of Mus musculus with 24 samples.

Results

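Non-canonical CD8+ dendritic cells were compared with canonical CD8+ dendritic cells from the spleens of Flt3 ITD/+ mice, and the result was set beside the same comparison in Flt3 +/+ mice to see which subset differences were found under the mutant and the normal receptor. The comparison used 6 ITD libraries of the 24 in the series, chosen by their labelled subset and genotype: 3 non-canonical (NC_CD8) and 3 canonical (C_CD8) libraries, 1 of each from experiment batches B, C and D. The matching 6 WT libraries, also 1 of each subset from each of those batches, gave the comparison under the normal receptor. All mice were C57BL/6 x FVB/N F1 hybrids, and the ITD mice were heterozygous for an internal tandem duplication in Flt3. No source used here gives the surface markers of the sort or the age and sex of the mice. Both sorted subsets are labelled CD8+, so the level of Cd8a reflects the sort as well as the cells.

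FLT3 is the receptor tyrosine kinase for FLT3 ligand and carries signals that dendritic cell progenitors need to expand. The internal tandem duplication, common in acute myeloid leukaemia, keeps the kinase active without ligand and feeds the STAT5, MAPK and PI3K pathways. Canonical CD8+ dendritic cells of mouse spleen belong to the cDC1 class: they depend on the transcription factors IRF8, BATF3 and ID2, carry the chemokine receptor XCR1, take up dead cells and present their antigens to CD8+ T cells. Non-canonical CD8+ cells lack cDC1 hallmarks and have been described as relatives of plasmacytoid dendritic cells (pDC), the class that makes type I interferon and depends on TCF4, an E protein that ID2 antagonises.

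The deposited values were raw read counts per gene, from 16767628 to 17513861 per non-canonical and 13936950 to 19640648 per canonical ITD library, and from 14112020 to 21270127 per WT library. Levels are CPM, read counts scaled to a common library size with edgeR's TMM factors, always for batches B, C and D in that order. Differences are log2 (non-canonical minus canonical) ± standard error from edgeR's quasi-likelihood test over 18093 genes, with 3 libraries in each group, and a gene was called at a Benjamini-Hochberg adjusted p under 0.05. A fit of all libraries with experiment batch as a block was made as well. Its value is given where it changed a call stated for a single gene or moved the ITD count of a gene list by over 1.5 times. Libraries of batch B stood apart from those of batches C and D: in the ITD groups, the chi-square statistic of the counts of 2 libraries, divided by its degrees of freedom, was 57.8 to 77.7 with batch B and 14.6 or 20.1 between batches C and D. Among the non-canonical WT libraries, that of batch C held the most RNA of the cDC1 list, with summed levels of 3295, 3829 and 2186 CPM in batches B, C and D, and the summed list held 1699.8 to 2509 CPM in the non-canonical ITD libraries. In such bulk samples, fewer cells of a type and less RNA per cell cannot be told apart.

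The labelled subsets matched their defining genes in the ITD mice for Xcr1, Tcf4 and Spib, while Tcf7 did not separate them. Xcr1, the cDC1 chemokine receptor gene, had 15.3, 8.23 and 6.96 CPM in non-canonical and 575, 1164 and 1061 CPM in canonical ITD libraries. The groups lay far apart in every batch, with a log2 difference of -6.52 ± 0.66 (edgeR adjusted p = 1.17e-06). Tcf4, the master regulator of pDC, had 493, 665 and 698 CPM in non-canonical and 55.9, 40.5 and 57.3 CPM in canonical ITD libraries. All 3 non-canonical libraries were above all 3 canonical ones, and the difference was 3.59 ± 0.20 (edgeR adjusted p = 2.43e-09). Spib, an ETS factor of pDC and B cells, had 116, 159 and 192 CPM in non-canonical and 27.8, 14.6 and 23.99 CPM in canonical ITD libraries, a difference of 2.82 ± 0.30 (edgeR adjusted p = 2.38e-06). In WT mice these 3 genes were called in the same direction, with differences of -3.73 ± 0.57 for Xcr1, 3.96 ± 0.20 for Tcf4 and 4.22 ± 0.33 for Spib.

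Tcf7 encodes TCF-1, a factor best known from T cell development. Its levels overlapped between the subsets in ITD mice, at 64.9, 39.6 and 52.9 CPM in non-canonical and 80.8, 24.7 and 42.5 CPM in canonical libraries, and the difference was 0.091 ± 0.51 (edgeR adjusted p = 0.923). In WT mice the subsets did not overlap, at 88.4, 66.9 and 103 CPM in non-canonical and 32.4, 7.81 and 19.5 CPM in canonical libraries, and the difference was 2.11 ± 0.53 (edgeR adjusted p = 0.00703). The test of the difference between genotypes gave -2.02 ± 0.73 with an edgeR unadjusted p of 0.0128 and an adjusted p of 1, so the call in WT alone does not show that the genotypes differ. Summed RNA of 15 T cell markers was 84.1 to 189.5 CPM in non-canonical WT and 37.6 to 47.5 CPM in non-canonical ITD libraries. The part of T cell RNA in the Tcf7 levels was not tested. Flt3 itself had 697, 743 and 751 CPM in non-canonical and 315, 386 and 393 CPM in canonical ITD libraries, a difference of 1.001 ± 0.13 (edgeR adjusted p = 1.37e-05). Flt3 was also called higher in non-canonical cells of WT mice, at 0.73 ± 0.13, and the genotype difference was 0.27 ± 0.18 (edgeR unadjusted p = 0.142, adjusted p = 1). The counts do not separate reads of the mutant and the normal Flt3 allele.

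**Figure D1:**
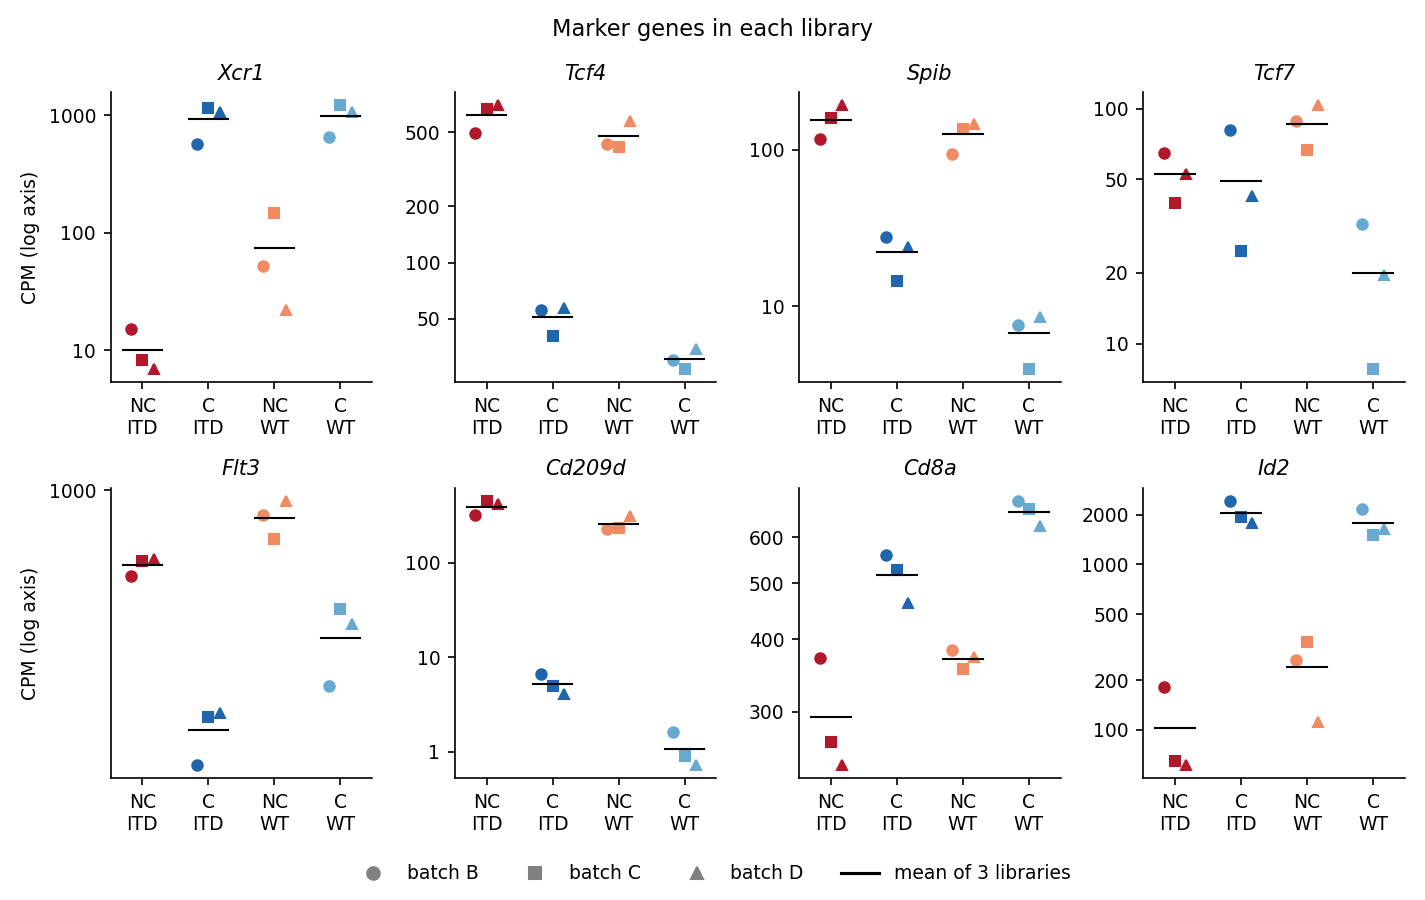
Level of 8 genes in each CD8+ library, in CPM on a log axis, for NC_CD8 and C_CD8 cells of ITD and then WT mice; symbols give the experiment batch and the line the mean of 3 libraries. Xcr1 and Id2 lie lower and Tcf4, Spib, Flt3 and Cd209d higher in NC_CD8 than in C_CD8 libraries of both genotypes, while the Tcf7 points of the ITD subsets overlap.

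Across the genome, 4877 of 18093 genes (27%) were called between the subsets in ITD mice: 2341 higher (12.9%) and 2536 lower (14%) in non-canonical cells. In WT mice 4528 genes (25%) were called, 2253 higher (12.5%) and 2275 lower (12.6%). Most of the ITD differences were also called with the normal receptor: 1743 genes were higher in both genotypes (9.63%), which is 74.5% of the ITD and 77.4% of the WT calls, and 1822 were lower in both (10.1%), which is 71.8% of the ITD and 80.1% of the WT calls. Together 3565 genes (19.7%) were called in both genotypes in the same direction, and no gene was called in opposite directions. Another 1312 genes (7.25%) were called in ITD and not in WT, and 963 (5.32%) in WT and not in ITD. The libraries of the subsets did not overlap in 2239 of the 2341 higher genes (95.6%) and 2360 of the 2536 lower genes (93.1%) in ITD, against 18.9% above and 19.1% below over all genes tested. Calls and overlap came from the same libraries, so this contrast follows largely from the selection and adds no support. With the batch block the ITD calls numbered 7817 (43.2%), the WT calls 7603 (42%) and those shared in direction 6133. The blocked ITD calls were higher in 21.1% of all genes and lower in 22.1%. The counts of gene lists below stand against these shares and those without the block.

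Of the 598 genes called higher in ITD and not in WT, 577 (96.5%) had a positive difference in WT too, and of the 714 called lower, 694 (97.2%) had a negative one. Of these, 290 higher and 389 lower genes reached an edgeR unadjusted p under 0.05 in WT. The differences of the 2 genotypes were correlated over all genes tested, as given below, so agreement in sign is not particular to these genes. Where a gene was called in both genotypes, the median difference was 1.45 in ITD and 1.49 in WT for the higher genes, and -1.07 in ITD and -1.01 in WT for the lower genes. The subset differences of the genotypes lay less than 1 log2 unit apart in 1558 of the 1743 shared higher genes (89.4%). The same held in 1634 of the 1822 shared lower genes (89.7%). Choosing genes called in both genotypes in the same direction favours similar differences, so these medians and shares partly follow from the choice. Among the shared higher genes the difference was larger in ITD in 753 (43.2%), and among the shared lower genes it was larger in ITD in 1201 (65.9%). Over all genes tested, the log2 differences of the 2 genotypes had a Pearson correlation of 0.70 and a Spearman correlation of 0.77, which describe 18093 genes that share batches and the spread estimate and are not independent replicates.

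**Figure D2:**
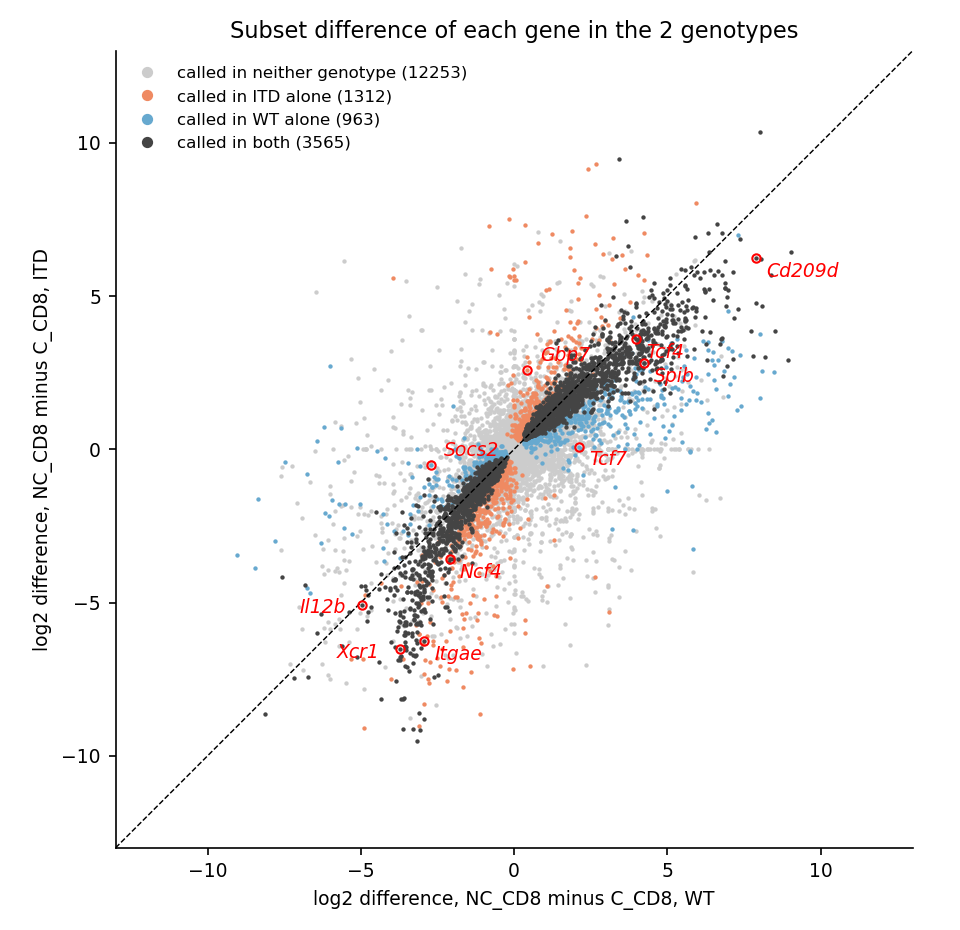
Log2 difference of NC_CD8 minus C_CD8 cells for each of 18093 genes, in ITD mice (vertical axis) against WT mice (horizontal axis), coloured by the genotypes in which the gene was called; the dashed line marks equal differences. The 3565 genes called in both lie along the line, and Xcr1, Itgae and Ncf4 lie below it.

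Part of the pDC programme was called higher in non-canonical ITD cells. Of 20 pDC identity genes, 11 were called higher and 1 lower (2 with the batch block), with a list median of 2.06 against 0 over all genes tested. Against this, 12.9% of all genes were called higher and 14% lower (22.1% with the block). The WT counts were 14 higher and 1 lower, with a median of 2.45, and all 11 genes called higher in ITD were called higher in WT. Zeb2, a zinc-finger factor that acts with TCF4 in pDC, had 276, 414 and 387 CPM in non-canonical and 46.9, 18.4 and 14.6 CPM in canonical ITD libraries, a difference of 3.76 ± 0.34 (edgeR adjusted p = 4.13e-07). Siglech, a pDC surface lectin, had 113, 151 and 169.9 CPM in non-canonical and 9.54, 14.8 and 9.01 CPM in canonical ITD libraries, a difference of 3.70 ± 0.56 (edgeR adjusted p = 8.05e-05). The subsets did not overlap in Siglech, and its WT levels were 258, 212 and 291 CPM in non-canonical and 5.46, 6.76 and 7.03 CPM in canonical libraries.

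Bst2, the interferon-inducible surface protein used to sort mouse pDC, was 2.04 log2 units higher in ITD and 2.07 in WT, with edgeR adjusted p-values of 1.23e-06 and 1.13e-06. Runx2, which pDC need to leave the bone marrow, was higher by 2.89 ± 0.49 in ITD (edgeR adjusted p = 0.000248). The list also held members not called higher in ITD, Irf7 and Ccr9 among them. Irf7, which drives interferon production in pDC, had 51.0, 30.8 and 46.8 CPM in non-canonical and 116, 102 and 103 CPM in canonical ITD libraries and was the only list member called lower, at -1.32 ± 0.21 (edgeR adjusted p = 0.000126). Ccr9, a gut-homing receptor of pDC, differed by -0.82 ± 0.34 in ITD (edgeR adjusted p = 0.0866, 0.0166 with the batch block, which would call it lower, and 0.0338 without the canonical library of batch B) and by 0.05 ± 0.34 in WT. Cox6a2, a cytochrome oxidase subunit gene, differed by 1.44 ± 0.60 in ITD (edgeR adjusted p = 0.0869, 0.0335 with the batch block). Cd300c, an activating receptor, was called in WT alone: it had 17.4, 27.0 and 19.9 CPM in non-canonical and 8.47, 15.6 and 13.9 CPM in canonical ITD libraries (edgeR adjusted p = 0.0537, 0.0123 with the batch block), against 44.9, 50.1 and 46.7 CPM in non-canonical and 7.34, 11.0 and 8.28 CPM in canonical WT libraries. The ITD difference of Cd300c was called without the canonical library of batch C or the non-canonical library of batch B (edgeR adjusted p-values 0.0456 and 0.0368), under DESeq2 and with its size factors. The genotype difference of Cd300c was -1.66 ± 0.40, with an edgeR unadjusted p of 0.000577 and an adjusted p of 0.387, and DESeq2 called it at an adjusted p of 0.0266.

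The cDC1 programme was lower in non-canonical ITD cells nearly throughout. Of 20 cDC1 identity genes, 19 were called lower in ITD and 18 in WT, with list medians of -4.91 and -2.96. Cd36, a scavenger receptor for dead cells, had 9.44, 4.71 and 5.72 CPM in non-canonical and 564, 631 and 519 CPM in canonical ITD libraries, a difference of -6.43 ± 0.58 (edgeR adjusted p = 3.42e-07). Itgae, which encodes the integrin chain CD103, had 2.53, 2.90 and 1.83 CPM in non-canonical and 127, 228 and 203 CPM in canonical ITD libraries, a difference of -6.26 ± 0.59 (edgeR adjusted p = 5.37e-07). In both genes every non-canonical ITD library was below every canonical one by a wide margin. Cadm1, a cell adhesion molecule of cDC1, was nearer between the subsets, with 127, 128 and 156 CPM in non-canonical and 537, 695 and 656 CPM in canonical ITD libraries and a difference of -2.20 ± 0.22 (edgeR adjusted p = 1.07e-06).

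Among the factors that build cDC1, Irf8 had 59.7, 161 and 202 CPM in non-canonical and 1489, 3324 and 2668 CPM in canonical ITD libraries, a difference of -4.15 ± 0.53 (edgeR adjusted p = 1.35e-05). Id2, the antagonist of E proteins such as TCF4, had 182, 65.0 and 61.3 CPM in non-canonical and 2409, 1920.2 and 1786 CPM in canonical ITD libraries, a difference of -4.31 ± 0.73 (edgeR adjusted p = 0.000269). Batf3 was lower by a smaller amount, -1.66 ± 0.34 (edgeR adjusted p = 0.00125). Nfil3, which acts upstream of ID2 in cDC1 development, was the list member not called lower: its difference was 0.71 ± 0.66 (edgeR adjusted p = 0.462), and the batch block would call it higher (adjusted p = 0.00331). In 18 of the 20 genes the difference was lower in ITD than in WT, with none of these genotype differences called by edgeR after adjustment. The list median of the genotype difference was -1.62, against -0.017 over all genes tested. In 10 it was lower at an edgeR unadjusted p under 0.05, against 2.7% of all genes. The list was chosen with earlier results of these data known, so this contrast adds no support. The 20 genes were measured in the same libraries and are not independent replicates. For Xcr1 the genotype difference was -2.79 ± 0.75 (edgeR unadjusted p = 0.00162, adjusted p = 0.528). It was -1.79 without the non-canonical WT library of batch C, the highest of its group in Xcr1, at 52.0, 148 and 22.1 CPM in non-canonical and 657, 1223 and 1074 CPM in canonical WT libraries.

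**Figure D3:**
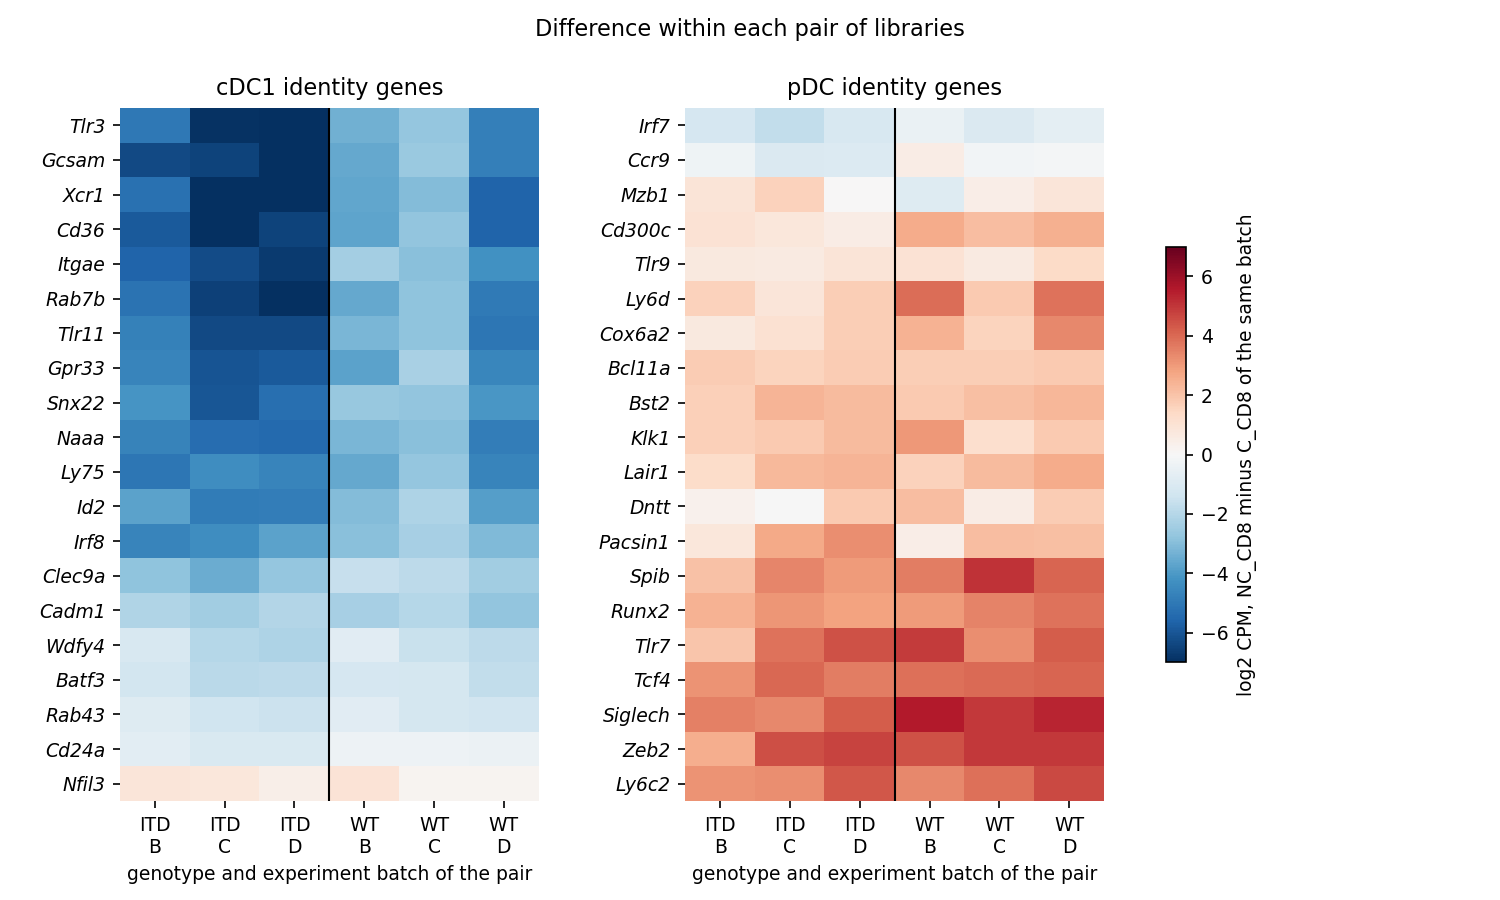
Log2 difference in CPM between the NC_CD8 and C_CD8 library of the same batch, for the 20 cDC1 and 20 pDC identity genes (rows) in 3 ITD and 3 WT pairs (columns); blue is lower and red higher in NC_CD8. The cDC1 genes from Tlr3 to Cadm1 are blue in all 6 columns, and in the rows from Tlr3 to Snx22 the ITD columns of batches C and D are the darkest, while Tcf4, Zeb2, Spib and Siglech are red in all 6.

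The largest negative differences, among protein-coding genes at 10 CPM or more in canonical ITD cells, fell in genes that were close to absent from non-canonical ITD cells. Ttc39a, whose function is little known, had 2.53, 0.624 and 0.413 CPM in non-canonical and 138, 206 and 186 CPM in canonical ITD libraries, a difference of -7.23 ± 0.61 (edgeR adjusted p = 1.99e-07). Cd207, which encodes the endocytic lectin langerin, had 4.07, 1.65 and 0.707 CPM in non-canonical and 444, 242 and 167 CPM in canonical ITD libraries, a difference of -7.06 ± 0.94 (edgeR adjusted p = 2.21e-05). Gramd2, Pcsk5, Ptgis, Igf2r, Homer2 and Itga1 completed the 8, each with 1 or 2 non-canonical ITD libraries at 0 and fitted differences between -9.53 for Gramd2 and -6.86 for Itga1. Pcsk5 encodes a proprotein convertase, Ptgis prostacyclin synthase and Igf2r the receptor that sorts lysosomal enzymes. All 8 were called lower in WT as well, although the WT call of Ptgis was lost without the non-canonical WT library of batch B or that of batch D (edgeR adjusted p-values 0.0610 and 0.0650) and that of Gramd2 in a fit of the 6 WT libraries alone (edgeR adjusted p = 0.0596). The WT difference of Gramd2 was -3.16, and -5.28 without the non-canonical library of batch C. In 7 of the 8 every non-canonical WT library held more of the RNA than every non-canonical ITD library, and in Cd207 these groups overlapped. Ttc39a had 13.9, 30.7 and 6.51 CPM in non-canonical and 163, 215 and 174 CPM in canonical WT libraries. Fitted differences of genes at or near 0 in 1 group depend on edgeR's prior count. Without the non-canonical ITD library of batch D, that of Homer2 was -10.69 in place of -7.09.

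The conventional type 2 (cDC2) list was also mostly higher in non-canonical cells, with C-type lectin receptors at its head. Of 18 cDC2 identity genes, 13 were called higher and 2 lower in ITD, and 13 higher and 3 lower in WT, with medians of 2.31 in ITD and 3.26 in WT. Of 24 C-type lectin genes, 14 were called higher and 3 lower in ITD, and all 17 were called in the same direction in WT. Cd209a, a DC-SIGN homologue that marks cDC2, had 571, 632 and 580.4 CPM in non-canonical and 20.5, 27.4 and 13.5 CPM in canonical ITD libraries, a difference of 4.86 ± 0.28 (edgeR adjusted p = 3.32e-09). Cd209d, a neighbouring gene of the same family, had 317, 447 and 413 CPM in non-canonical and 6.64, 5.02 and 4.06 CPM in canonical ITD libraries, a difference of 6.23 ± 0.35 (edgeR adjusted p = 2.92e-09). Cd209d was among the most separated genes at this level of expression, with no overlap in any batch. Its WT levels were 229.9, 232 and 312 CPM in non-canonical and 1.61, 0.910 and 0.729 CPM in canonical libraries.

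Clec10a and Mgl2, which encode galactose-type lectins, were higher by 5.35 ± 0.41 and 5.08 ± 0.44 in ITD (edgeR adjusted p-values 6.34e-08 and 2.55e-07). These paralogues share sequence, 9.02% of the 50-base words of Clec10a and 13.1% of those of Mgl2 being found in another gene, so the counting could have split reads between them. The lectins called lower were those of cDC1. Ly75, which encodes the endocytic receptor DEC-205, had 5.61, 11.4 and 12.3 CPM in non-canonical and 189, 235 and 305 CPM in canonical ITD libraries, a difference of -4.64 ± 0.47 (edgeR adjusted p = 1.2e-06). Clec9a, a receptor for dead cells, had 22.6, 28.8 and 46.0 CPM in non-canonical and 161, 323 and 296 CPM in canonical ITD libraries, a difference of -3.002 ± 0.32 (edgeR adjusted p = 1.82e-06). Of the genes that usually mark cDC2, Sirpa was higher by 3.43 ± 0.35 and Irf4 by 3.99 ± 0.46 in ITD. Esam had 7.34, 7.15 and 8.14 CPM in non-canonical and 12.7, 11.4 and 13.4 CPM in canonical ITD libraries, which did not overlap, and its difference of -0.72 ± 0.53 was not called (edgeR adjusted p = 0.338). It was called lower in the fit of the 12 CD8+ libraries (edgeR adjusted p = 0.0151) and in the fit of the 6 ITD libraries, without and with the batch block (edgeR adjusted p-values 0.0397 and 0.0136). The 2 list members called lower were Cd1d1, at -2.10 ± 0.19, which shares 19.1% of its 50-base words with another gene, and Gpr4, at -2.58 ± 0.41.

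Of the T cell antigens that dendritic cells also carry, Cd7 had 342, 251 and 271 CPM in non-canonical and 39.0, 11.1 and 16.4 CPM in canonical ITD libraries, a difference of 3.71 ± 0.38 (edgeR adjusted p = 1.58e-06). Cd4 was higher by 2.47 ± 0.48 and Cd8b1, the CD8 beta chain gene, by 2.06 ± 0.41 in ITD (edgeR adjusted p-values 0.00084 and 0.00118). Cd8a had 371, 266 and 243 CPM in non-canonical and 559, 527 and 462 CPM in canonical ITD libraries, a difference of -0.81 ± 0.20 (edgeR adjusted p = 0.00591). The directions of these 4 genes were the same, and called, in WT.

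Some of the largest positive differences lay outside these lists. Dab2, an endocytic adaptor, had 168, 269 and 207 CPM in non-canonical and 9.69, 0.837 and 1.37 CPM in canonical ITD libraries, a difference of 5.81 ± 0.85 (edgeR adjusted p = 5.81e-05). Xkrx, a member of the XK family of membrane proteins, had 5.98, 37.3 and 39.0 CPM in non-canonical and 0.687, 0.157 and 0.537 CPM in canonical ITD libraries, a difference of 5.94 ± 0.85 (edgeR adjusted p = 4.38e-05). Fat3, a giant cadherin, was detected in all 3 non-canonical ITD libraries at 16.0, 15.8 and 8.90 CPM and in 1 canonical ITD library, whose levels were 0.229, 0 and 0 CPM. Ptgir, Aqp3, Rgs7bp and Ccr1 completed the 8 with Cd209d, and all 8 were called higher in WT too.

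The promoters of 4 genes that stand for groups of differences are shown for reference: Siglech for the pDC genes and Cd209d for the lectins, both higher in non-canonical cells, and Cxcl9 for the chemokines and Tap1 for class I presentation, both lower. Each is the RefSeq window from 250 bases before to 50 bases after the gene's start in GRCm38.p6, on the gene's strand. Capitals mark matches on either strand to the words searched.
Siglech, chr7:55767934-55768233, plus strand: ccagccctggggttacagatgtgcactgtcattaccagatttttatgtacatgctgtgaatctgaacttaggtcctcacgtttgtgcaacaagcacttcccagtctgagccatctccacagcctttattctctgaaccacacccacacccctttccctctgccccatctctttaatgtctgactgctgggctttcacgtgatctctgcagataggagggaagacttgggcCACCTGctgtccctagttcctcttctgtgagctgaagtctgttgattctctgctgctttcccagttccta
Cd209d, chr8:3878450-3878749, minus strand: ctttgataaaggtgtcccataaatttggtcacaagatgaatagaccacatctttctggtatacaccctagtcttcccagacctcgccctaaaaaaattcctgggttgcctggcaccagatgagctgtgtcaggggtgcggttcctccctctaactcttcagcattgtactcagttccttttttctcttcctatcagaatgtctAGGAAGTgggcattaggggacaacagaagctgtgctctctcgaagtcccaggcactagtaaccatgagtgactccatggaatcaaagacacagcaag
Cxcl9, chr5:92328030-92328329, minus strand: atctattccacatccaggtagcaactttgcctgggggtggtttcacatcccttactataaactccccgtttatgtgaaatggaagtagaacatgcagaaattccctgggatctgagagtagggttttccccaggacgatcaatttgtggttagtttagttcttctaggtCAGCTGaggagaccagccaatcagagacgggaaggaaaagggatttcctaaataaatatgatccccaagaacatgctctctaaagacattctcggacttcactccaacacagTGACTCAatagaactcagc
Tap1, chr17:34187306-34187605, plus strand: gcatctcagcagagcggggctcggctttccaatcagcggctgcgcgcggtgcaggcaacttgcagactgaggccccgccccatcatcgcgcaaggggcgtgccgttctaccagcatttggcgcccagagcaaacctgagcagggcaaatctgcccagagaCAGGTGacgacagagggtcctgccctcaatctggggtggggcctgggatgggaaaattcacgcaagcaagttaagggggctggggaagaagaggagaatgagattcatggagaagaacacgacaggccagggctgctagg
The Tap1 window overlaps that of Psmb9, which is read from the opposite strand, by 275 bases.

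The words searched were the E-boxes CAGCTG and CACCTG, which E proteins such as TCF4 can bind, the ETS core AGGAAGT, the interferon response element core GAAANNGAAA and the AP-1 site TGANTCA. Siglech and Tap1 held CACCTG (in Tap1 as its reverse complement), Cd209d held AGGAAGT, and Cxcl9 held CAGCTG and an AP-1 site. Over 32851 promoter windows the words were found in 16.3% (CAGCTG), 20.2% (CACCTG), 9.35% (AGGAAGT), 3.44% (GAAANNGAAA) and 7.81% (TGANTCA). The table held 14232 windows for 11202 of the genes tested. CAGCTG was present in 17.9% of the windows of genes called higher in non-canonical ITD cells, in 16.3% of those called lower and in 15.6% of the windows of all genes tested. For GAAANNGAAA these shares were 3.16%, 4.62% and 3.30%, and for CACCTG 18.7%, 18.3% and 18.7%. For AGGAAGT they were 9.49%, 11.0% and 9.60%, and for TGANTCA 5.42%, 6.47% and 5.39%. These matches describe letters and say nothing of binding.

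**Figure D4:**
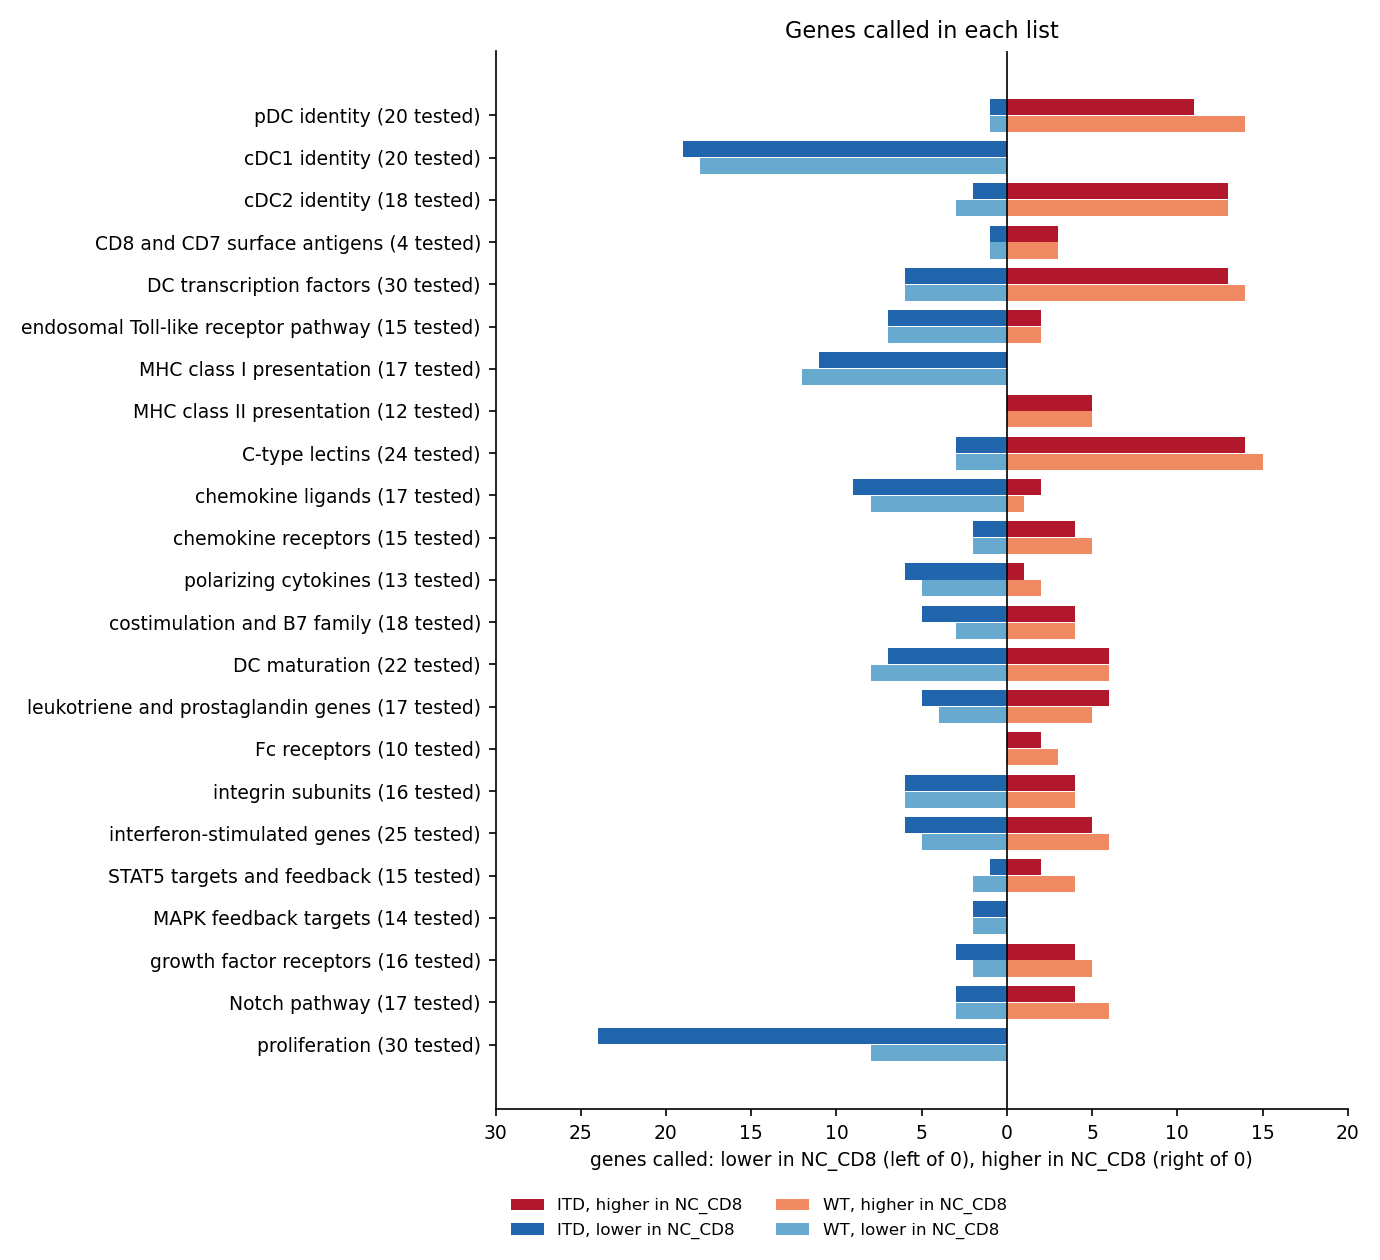
Number of genes called in each of 23 gene lists, higher in NC_CD8 cells to the right of 0 and lower to the left, in ITD mice (upper bar of each pair) and WT mice (lower bar). The cDC1, class I and chemokine ligand bars point left and the pDC, cDC2 and lectin bars right in both genotypes, and the proliferation bar is longer in ITD than in WT.

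Transcription factors of the dendritic cell lineage were called in both directions. Of 30 genes, 13 were called higher and 6 lower in ITD, and 14 higher and 6 lower in WT. The shares of all genes were 12.9% higher and 14% lower in ITD, and 12.5% and 12.6% in WT. Irf4, which cDC2 need, had 285, 382 and 386 CPM in non-canonical and 34.2, 10.9 and 21.5 CPM in canonical ITD libraries, a difference of 3.99 ± 0.46 (edgeR adjusted p = 5.25e-06). Mycl, a MYC family factor active in cDC1, had 102, 191 and 171 CPM in non-canonical and 291, 604 and 517 CPM in canonical ITD libraries, a difference of -1.60 ± 0.32 (edgeR adjusted p = 0.00123). Tcf4, Zeb2, Spib and Irf4 were above every canonical library in all 3 non-canonical ITD libraries, and Irf8, Id2, Irf7 and Mycl were below.

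Of 15 genes of the endosomal Toll-like receptor pathway, which senses nucleic acids and microbial products, 2 were called higher in ITD (5 with the batch block) and 7 lower, and the WT counts were the same. The higher count was close to the share of all genes called higher in ITD (12.9%). Tlr7, a sensor of single-stranded RNA, had 36.9, 31.8 and 45.6 CPM in non-canonical and 9.39, 2.14 and 1.97 CPM in canonical ITD libraries, a difference of 3.12 ± 0.45 (edgeR adjusted p = 5.05e-05). Slc15a4, a transporter of endolysosomes that TLR7 and TLR9 signalling needs, had 229.6, 382 and 370.4 CPM in non-canonical and 66.1, 54.9 and 58.2 CPM in canonical ITD libraries, a difference of 2.45 ± 0.19 (edgeR adjusted p = 7.18e-08). Other sensors were lower in non-canonical cells. Tlr3, which senses double-stranded RNA, had 2.71, 2.38 and 1.002 CPM in non-canonical and 91.5, 306 and 259 CPM in canonical ITD libraries, a difference of -6.75 ± 0.80 (edgeR adjusted p = 6.29e-06). Tlr11 and Tlr12, which sense Toxoplasma profilin, had differences of -5.99 ± 0.68 and -3.47 ± 0.58 (edgeR adjusted p-values 3.72e-06 and 0.000235). In WT the 7 lower calls of this list became 4 without the non-canonical library of batch C or without that of batch D.

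Of 25 interferon-stimulated genes tested, 5 were called higher (8 with the block) and 6 lower in ITD, with a median of -0.18. Over all genes, 12.9% were called higher (21.1% with the block) and 14% lower. Ddx58, which encodes the RNA sensor RIG-I, was higher by 2.67 ± 0.40 (edgeR adjusted p = 6.92e-05). Mx1, which encodes an antiviral GTPase, had 9.38, 5.39 and 5.25 CPM in non-canonical and 52.8, 86.9 and 70.2 CPM in canonical ITD libraries, a difference of -3.39 ± 0.47 (edgeR adjusted p = 3.28e-05). Zbp1, a sensor that can trigger cell death, and Oasl1 had differences of -2.30 ± 0.34 and -3.36 ± 0.43 (edgeR adjusted p-values 6.85e-05 and 1.28e-05).

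Antigen presentation was lower on the class I side and partly higher on the class II side. Of 17 class I presentation genes, 11 were called lower and none higher in ITD, and 12 lower and none higher in WT, with medians of -1.24 and -1.15. All 11 ITD genes were called lower in WT. Psmb9, an immunoproteasome subunit, had 144, 116 and 110.2 CPM in non-canonical and 535, 532 and 508 CPM in canonical ITD libraries, a difference of -2.09 ± 0.21 (edgeR adjusted p = 8.55e-07). Tap1, a subunit of the peptide transporter, had 226, 210.1 and 241 CPM in non-canonical and 516, 622 and 647 CPM in canonical ITD libraries, a difference of -1.40 ± 0.16 (edgeR adjusted p = 3.88e-06). Its partner Tap2 had a difference of -1.58 ± 0.19, and the proteasome activator gene Psme1 one of -1.38 ± 0.14 (edgeR adjusted p-values 6.31e-06 and 8.55e-07). In each of these 4 genes the 2 subsets did not overlap in either genotype.

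Of 12 class II genes tested, 5 were called higher and none lower in ITD, and the same number in WT. Of all genes, 12.9% were called higher in ITD and 12.5% in WT. Ifi30, a lysosomal thiol reductase, had 868, 886 and 791 CPM in non-canonical and 350.0, 287 and 292 CPM in canonical ITD libraries, a difference of 1.45 ± 0.11 (edgeR adjusted p = 4.53e-08). Ctss, the protease that trims the invariant chain, had 1415, 1264 and 1226 CPM in non-canonical and 688, 593 and 578 CPM in canonical ITD libraries, a difference of 1.07 ± 0.12 (edgeR adjusted p = 4.14e-06). H2-DMb2, a chain of the peptide-exchange factor H2-DM, was higher by 1.19 ± 0.14, although 24.8% of its 50-base words also occur in another gene, chiefly H2-DMb1. The class II molecule itself was not called: H2-Aa had 15193, 10866 and 10613 CPM in non-canonical and 12594, 11116 and 10714 CPM in canonical ITD libraries (edgeR adjusted p = 0.706), and Ciita, its transactivator, differed by 0.065 ± 0.33 (edgeR adjusted p = 0.912).

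Chemokine ligand RNA was mostly lower in non-canonical cells. Of 17 ligand genes tested, 2 were called higher and 9 lower in ITD, against 12.9% and 14% of all genes, with a median of -2.02. The 2 higher ones were Ccl9 and Ccl3, and the call of Ccl3 was lost without the canonical library of batch B or D or the non-canonical library of batch C, its difference then being 0.64, 0.74 and 0.66 in place of 0.79. Cxcl9, a ligand of CXCR3 that draws T cells, had 5.92, 6.93 and 11.1 CPM in non-canonical and 270.5, 217 and 225 CPM in canonical ITD libraries, a difference of -4.89 ± 0.55 (edgeR adjusted p = 3.44e-06). Ccl22, a ligand of CCR4 made by mature dendritic cells, had 4.20, 3.69 and 7.90 CPM in non-canonical and 138, 116 and 130.1 CPM in canonical ITD libraries, a difference of -4.60 ± 0.54 (edgeR adjusted p = 5.34e-06). Ccl9 ran the other way, with 56.6, 79.5 and 55.4 CPM in non-canonical and 7.78, 7.11 and 4.12 CPM in canonical ITD libraries and a difference of 3.33 ± 0.37 (edgeR adjusted p = 2.86e-06).

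Among 15 chemokine receptor genes, 4 were called higher and 2 lower (4 with the batch block) in ITD. Over all genes, 12.9% were called higher and 14% lower (22.1% with the block). Cx3cr1, the fractalkine receptor used to mark non-canonical CD8+ cells, had 119, 214 and 195 CPM in non-canonical and 6.18, 3.98 and 5.01 CPM in canonical ITD libraries, a difference of 5.13 ± 0.58 (edgeR adjusted p = 3.94e-06). Ccr1, a receptor of inflammatory CC chemokines, had 188, 263 and 254 CPM in non-canonical and 5.42, 4.66 and 2.27 CPM in canonical ITD libraries, a difference of 5.84 ± 0.50 (edgeR adjusted p = 2.2e-07). Ccr2, the receptor of CCL2, was higher by 2.11 ± 0.38. Cxcr3 joined Xcr1 as the second receptor called lower, with 0.494, 1.42 and 1.24 CPM in non-canonical and 21.5, 82.3 and 61.5 CPM in canonical ITD libraries and a difference of -5.70 ± 0.81 (edgeR adjusted p = 4.59e-05).

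Of 13 T cell polarizing cytokine genes tested, 1 was called higher (3 with the block) and 6 lower in ITD. Over all genes, 12.9% were called higher (21.1% with the block) and 14% lower. Il12b, the p40 chain of IL-12, had 13.3, 3.86 and 12.7 CPM in non-canonical and 471, 163 and 369.8 CPM in canonical ITD libraries, a difference of -5.07 ± 0.83 (edgeR adjusted p = 0.000177). The WT difference of Il12b was -4.98 ± 0.82, and the genotype difference -0.092 ± 1.01 (edgeR unadjusted p = 0.928). Il15, a survival factor of CD8+ T and NK cells, had 0.679, 1.53 and 1.53 CPM in non-canonical and 19.2, 38.3 and 40.8 CPM in canonical ITD libraries, a difference of -4.70 ± 0.49 (edgeR adjusted p = 1.5e-06). The gene called higher was Il1b, which encodes interleukin 1 beta, with 2267, 1248 and 1425 CPM in non-canonical and 709, 418 and 624 CPM in canonical ITD libraries and a difference of 1.496 ± 0.37 (edgeR adjusted p = 0.00614). In WT mice Il1b differed by 1.01 ± 0.37 (edgeR adjusted p = 0.0535, 0.00601 with the block), and it was called without the canonical WT library of batch D, at 1.49, or the non-canonical one of batch C, at 1.21 (edgeR adjusted p-values 0.0101 and 0.0377), as well as under DESeq2 and with no filter on low counts.

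Costimulatory and coinhibitory ligands changed in both directions. Of 18 genes of this group, 4 were called higher (7 with the block) and 5 lower in ITD, against 12.9% (21.1% with the block) and 14% of all genes. The lower count was 3 when an ITD library of batch C or D, of either subset, was left out. Tnfsf9, the ligand of 4-1BB, had 352, 855 and 772 CPM in non-canonical and 51.7, 32.5 and 37.3 CPM in canonical ITD libraries, a difference of 4.03 ± 0.42 (edgeR adjusted p = 1.73e-06). Cd274, which encodes PD-L1, had 558, 364 and 394 CPM in non-canonical and 173, 35.9 and 56.0 CPM in canonical ITD libraries, a difference of 2.31 ± 0.47 (edgeR adjusted p = 0.00132). Btla, an inhibitory receptor, had 189, 182 and 161 CPM in non-canonical and 666, 896 and 825 CPM in canonical ITD libraries, a difference of -2.17 ± 0.17 (edgeR adjusted p = 6.76e-08). All 3 were called in the same direction in WT.

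The maturation list was mixed as well. Of 22 genes, 6 were called higher and 7 lower in ITD, against 12.9% and 14% of all genes, with a list median of -0.051. The higher calls numbered 2 without the canonical library of batch C or D and 3 without the non-canonical library of batch B or D. Cd200, an inhibitory ligand that rises on maturing dendritic cells, had 13.1, 18.7 and 14.0 CPM in non-canonical and 107, 107 and 102 CPM in canonical ITD libraries, a difference of -2.79 ± 0.28 (edgeR adjusted p = 1.14e-06). Il15ra, which presents IL-15 to T cells, had 2.41, 6.19 and 7.25 CPM in non-canonical and 36.8, 54.1 and 66.9 CPM in canonical ITD libraries, a difference of -3.31 ± 0.52 (edgeR adjusted p = 0.000112). Tnfrsf4, which encodes the receptor OX40, had a difference of -4.19 ± 0.57 (edgeR adjusted p = 2.57e-05).

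Genes of lipid mediators changed in both directions. Of 17 leukotriene and prostaglandin genes, 6 were called higher and 5 lower in ITD, against 12.9% and 14% of all genes. Ptgs2, the inducible cyclooxygenase COX-2, had 1639, 2090.0 and 2312 CPM in non-canonical and 431, 73.8 and 118 CPM in canonical ITD libraries, a difference of 3.28 ± 0.52 (edgeR adjusted p = 0.00014). Ptgir, the prostacyclin receptor, had 14.8, 18.6 and 20.8 CPM in non-canonical and 0.229, 0.105 and 0 CPM in canonical ITD libraries, a difference of 7.35 ± 0.80 (edgeR adjusted p = 3.63e-06). Ptgis, the enzyme that makes its ligand, was on the other side, with 0.123, 0 and 0 CPM in non-canonical and 14.3, 24.4 and 15.4 CPM in canonical ITD libraries. Lta4h, which makes leukotriene B4, was higher by 2.34 ± 0.23, Alox5, the 5-lipoxygenase, by 4.57 ± 0.90, and Alox5ap, which encodes the protein that activates 5-lipoxygenase, had a difference of -0.87 ± 0.12. Tbxas1, thromboxane synthase, had a difference of -3.91 ± 0.64 (edgeR adjusted p = 0.000193).

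Of 10 Fc receptor genes 2 were called, both higher, against 12.9% of all genes called higher: Fcer1g, the common signalling chain, by 2.87 ± 0.19 and Fcgr2b, the inhibitory IgG receptor, by 1.44 ± 0.18 (edgeR adjusted p-values 2.04e-08 and 1.4e-05). With the block 3 Fc receptor genes were called higher and 1 lower, against 21.1% and 22.1% of all genes. Of 16 integrin genes tested, 4 were called higher and 6 lower in ITD, against 12.9% and 14% of all genes. Itgam, the CD11b chain, had 30.8, 51.0 and 49.8 CPM in non-canonical and 10.5, 10.6 and 8.36 CPM in canonical ITD libraries, a difference of 2.16 ± 0.25 (edgeR adjusted p = 5.25e-06), although 66.3% of its 50-base words are also found in a predicted gene, Gm49368. Itgax, the CD11c chain common to dendritic cells, was higher by 0.59 ± 0.15 (edgeR adjusted p = 0.00615). Itgb3, the beta 3 chain, had 277, 116 and 113 CPM in non-canonical and 30.6, 3.40 and 1.19 CPM in canonical ITD libraries, a difference of 3.87 ± 0.93 (edgeR adjusted p = 0.00479) that was 6.203 without the canonical library of batch B. Itgal, the LFA-1 alpha chain, was lower, with 104, 89.9 and 100.2 CPM in non-canonical and 163, 233 and 226 CPM in canonical ITD libraries and a difference of -1.08 ± 0.18 (edgeR adjusted p = 0.000169).

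Receptors for growth factors and cytokines included Csf1r, Il2rg and Il7r on the higher side and Csf2ra on the lower side. Of 16 receptor genes, 4 were called higher (9 with the block) and 3 lower in ITD, against 12.9% (21.1% with the block) and 14% of all genes. The lower count was 1 without the non-canonical library of batch C. Csf1r, the M-CSF receptor, had 626, 626 and 554 CPM in non-canonical and 85.2, 43.1 and 35.2 CPM in canonical ITD libraries, a difference of 3.47 ± 0.68 (edgeR adjusted p = 0.00101). Il2rg, the common gamma chain, was higher by 2.42 ± 0.25 and Il7r by 1.70 ± 0.36, and 27.5% of the 50-base words of Il2rg are also found in a predicted gene, Gm20489. Csf2ra, the GM-CSF receptor alpha chain, had 117, 134 and 129.6 CPM in non-canonical and 306, 444 and 419.7 CPM in canonical ITD libraries, a difference of -1.62 ± 0.17 (edgeR adjusted p = 1.29e-06).

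Of 15 STAT5 target and feedback genes, 2 were called higher (10 with the block) and 1 lower (2 with the block) in ITD. Over all genes, 12.9% were called higher (21.1% with the block) and 14% lower (22.1% with the block). The higher count was 5 without the canonical library of batch B and 1 without the non-canonical library of batch C or D, and the lower count ranged from 0 to 2 when 1 library was left out. Pim3, a survival kinase, was higher by 1.44 ± 0.32 (edgeR adjusted p = 0.00267). Socs2, a STAT5-induced feedback inhibitor, overlapped between the subsets in ITD, at 22.4, 25.7 and 34.2 CPM in non-canonical and 36.6, 33.7 and 46.3 CPM in canonical libraries, with a difference of -0.50 ± 0.38 (edgeR adjusted p = 0.358). It was lower in the non-canonical library of each ITD batch, and a fit of the 6 ITD libraries with the batch block called it lower, at -0.50 (edgeR adjusted p = 0.0172). In WT it had 1.93, 4.97 and 3.76 CPM in non-canonical and 26.4, 15.9 and 27.3 CPM in canonical libraries, a difference of -2.71 ± 0.42 (edgeR adjusted p = 0.000113). The genotype difference of Socs2 was 2.203 ± 0.56, with an edgeR unadjusted p of 0.000975 and an adjusted p of 0.475. Of 14 MAPK feedback genes tested 2 were called, both lower, against 14% of all genes called lower. With the block 5 were called lower, against 22.1% of all genes. The count without the block was 0 without the canonical ITD library of batch C. It was 1 without the canonical library of batch D or the non-canonical library of batch C.

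Of 17 Notch pathway genes, 4 were called higher and 3 lower in ITD, against 12.9% and 14% of all genes. With the block 7 were higher and 5 lower (5 lower also without the batch B libraries), against 21.1% and 22.1%. Notch3 and Notch4, 2 of the receptors, went opposite ways: Notch3 had 5.24, 7.89 and 15.7 CPM in non-canonical and 0.916, 0.418 and 0.477 CPM in canonical ITD libraries, a difference of 4.02 ± 0.66 (edgeR adjusted p = 0.000201). Notch4 had 1.48, 3.12 and 4.48 CPM in non-canonical and 30.5, 85.0 and 88.6 CPM in canonical ITD libraries, a difference of -4.49 ± 0.56 (edgeR adjusted p = 1.14e-05). Hes1, a target gene of Notch, had 6.91, 9.88 and 5.07 CPM in non-canonical and 20.1, 61.4 and 32.8 CPM in canonical ITD libraries, a difference of -2.39 ± 0.57 (edgeR adjusted p = 0.00479). In WT, Hes1 had 22.0, 40.6 and 20.2 CPM in non-canonical and 24.7, 53.2 and 27.1 CPM in canonical libraries, and the subsets overlapped.

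Cell division genes were lower in non-canonical ITD cells. Of 30 proliferation genes, 24 were called lower and none higher in ITD, with a median of -2.13, and 8 lower and none higher in WT, with a median of -1.19. The ITD count was 14 without the canonical library of batch B, and the WT count was 0 without the canonical library of batch B, 3 without the non-canonical library of batch B or C, 1 without that of batch D and 24 with the batch block. The subset difference was lower in ITD than in WT in 29 of the 30 genes, and edgeR called none of these genotype differences. In 2 it was lower at an edgeR unadjusted p under 0.05, against 2.7% of all genes. The list median of the genotype difference was -0.81, against -0.017 over all genes tested. The 30 genes were measured in the same libraries and are not independent replicates. Rrm2, a subunit of ribonucleotide reductase, had 6.91, 3.24 and 2.53 CPM in non-canonical and 55.0, 28.7 and 28.1 CPM in canonical ITD libraries, a difference of -3.14 ± 0.49 (edgeR adjusted p = 0.00011). Mcm6, part of the replicative helicase, had 55.2, 41.2 and 38.3 CPM in non-canonical and 158, 93.5 and 107 CPM in canonical ITD libraries, a difference of -1.41 ± 0.25 (edgeR adjusted p = 0.000423). Kif20a, a mitotic kinesin, had a difference of -2.94 ± 0.53 and E2f1, a factor that drives entry into S phase, one of -1.63 ± 0.31. Summed over the list, non-canonical ITD libraries held 363 to 523 CPM and canonical ones 803 to 1504 CPM, while non-canonical WT libraries held 574 to 763 CPM and canonical ones 992 to 1673 CPM.

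Whether the mutant receptor changed a subset difference was tested directly, as the ITD difference minus the WT difference. This test called 1 gene of 18093 (0.00553%), Ncf4, which encodes the p40phox subunit of the phagocyte NADPH oxidase. Ncf4 had 15.5, 13.9 and 18.5 CPM in non-canonical and 186, 203 and 188 CPM in canonical ITD libraries, against 50.2, 55.0 and 38.2 CPM in non-canonical and 221, 199 and 197 CPM in canonical WT libraries. Canonical cells of the genotypes overlapped, and non-canonical ITD cells were below non-canonical WT cells in every batch. The differences were -3.59 ± 0.17 in ITD and -2.11 ± 0.16 in WT, and the test of their difference gave -1.49 ± 0.22 (edgeR adjusted p = 0.0497, 0.0161 with the batch block). The call was lost in 10 of the 12 fits that left out 1 library and held without the non-canonical library of batch D of either genotype, with values from -1.62 to -1.37 over the 12. It was also lost in the fit of the 12 CD8+ libraries, without the batch block (edgeR adjusted p = 0.412) and with it (0.0673), with no filter on low counts (0.052) and without the batch B libraries (0.344). At an unadjusted p under 0.05 there were 676 genes (3.74%), 188 with a higher (1.04%) and 488 with a lower (2.7%) difference in ITD. DESeq2 called 40 genes in the same contrast, 3 higher and 37 lower.

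With the batch block in the fit of all libraries the test called 4 genes (0.0221%), all with a lower difference in ITD: Ncf4, Hes1 (edgeR adjusted p = 0.00426), Cacna1e, a calcium channel gene (edgeR adjusted p = 0.0248), and Il21r, the interleukin 21 receptor gene (edgeR adjusted p = 0.0248). In the fit of the 12 CD8+ libraries with the batch block, none of these 4 was called. DESeq2, without the block, called the genotype differences of Ncf4 and Cacna1e, at adjusted p-values of 4.85e-07 and 0.0266. Cacna1e and Il21r were chosen for naming after their values were seen. Cacna1e had 3.89, 5.62 and 7.60 CPM in non-canonical and 31.2, 86.0 and 105 CPM in canonical ITD libraries, against 19.4, 33.4 and 21.3 CPM in non-canonical and 33.4, 68.1 and 91.6 CPM in canonical WT libraries. Il21r overlapped between the subsets in ITD, at 139.6, 41.4 and 83.5 CPM in non-canonical and 147, 59.6 and 93.6 CPM in canonical libraries, while in WT non-canonical libraries held 208, 66.4 and 130.2 CPM and canonical ones 76.7, 26.6 and 63.5 CPM. Within every WT batch the non-canonical library was the higher, and within every ITD batch the lower.

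The next genes by p did not pass edgeR's adjustment. Among those with a lower difference in ITD was Itgae, at -3.31 ± 0.69 (edgeR unadjusted p = 0.000159, adjusted p = 0.387). Pdia5, a protein disulfide isomerase gene, was at -1.88 ± 0.37 (edgeR unadjusted p = 7.88e-05, adjusted p = 0.285), and Dtx1, a Notch regulator, at -2.21 ± 0.50 (edgeR unadjusted p = 0.000378, adjusted p = 0.387). Dtx1 had 21.6, 19.1 and 21.8 CPM in non-canonical and 10.2, 4.29 and 6.74 CPM in canonical ITD libraries, against 46.9, 42.8 and 58.1 CPM in non-canonical and 2.65, 5.41 and 2.66 CPM in canonical WT libraries. Without the non-canonical WT library of batch D the test called 16 genes, Itgae, Pdia5, Ttc39a and Cd36 among them. DESeq2 called these 4 as well, and also Dtx1, Gcsam, Xcr1 and Gramd2.

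On the other side were genes whose difference was higher in ITD. Gbp7, an interferon-inducible GTPase gene, had 22.6, 42.7 and 58.1 CPM in non-canonical and 5.65, 8.58 and 6.09 CPM in canonical ITD libraries, against 3.32, 12.4 and 11.0 CPM in non-canonical and 5.72, 7.28 and 6.67 CPM in canonical WT libraries. Its subsets were separated in ITD, at 2.60 ± 0.42 (edgeR adjusted p = 0.000171), and overlapped in WT, at 0.44 ± 0.41 (edgeR adjusted p = 0.471), with a genotype difference of 2.16 ± 0.58 (edgeR unadjusted p = 0.00153, adjusted p = 0.528). App, which encodes amyloid precursor protein, had 229, 214 and 220.3 CPM in non-canonical and 109, 110.2 and 114 CPM in canonical ITD libraries, against 141, 155 and 149 CPM in non-canonical and 110.4, 121 and 128 CPM in canonical WT libraries. App was called higher in ITD, at 0.99 ± 0.13 (edgeR adjusted p = 1.3e-05), and not in WT, at 0.31 ± 0.12 (edgeR adjusted p = 0.0795, 0.018 with the batch block). The non-canonical ITD libraries held the most App of the 4 groups, and its genotype difference was 0.68 ± 0.18 (edgeR unadjusted p = 0.00117, adjusted p = 0.482). Cacnb2, a calcium channel subunit gene, was called in WT alone, at -1.63 ± 0.28 there and 0.38 ± 0.27 in ITD, with a genotype difference of 2.01 ± 0.39 (edgeR unadjusted p = 6.77e-05, adjusted p = 0.285). DESeq2 called the genotype difference of Cacnb2, at an adjusted p of 0.00359. Reads of Gbp7 can be shared with other members of its family, 12.7% of its 50-base words being found elsewhere.

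Some genes were called in 1 genotype alone, chosen here by the smallest p of the genotype difference. Tnfrsf9, the receptor 4-1BB, had 1.54, 2.90 and 2.59 CPM in non-canonical and 24.1, 11.2 and 19.3 CPM in canonical ITD libraries, against 2.26, 27.1 and 20.2 CPM in non-canonical and 8.17, 3.35 and 8.70 CPM in canonical WT libraries. Its subsets did not overlap in ITD, at -2.95 ± 0.75 (edgeR adjusted p = 0.00689), and overlapped in WT, at 1.29 ± 0.69 (edgeR adjusted p = 0.187). Without the non-canonical WT library of batch B it was called higher in WT, at 1.81 (edgeR adjusted p = 0.0344). The genotype difference of Tnfrsf9 was -4.24 ± 1.02 (edgeR unadjusted p = 0.000596, adjusted p = 0.387), and DESeq2 called it at an adjusted p of 0.0172. Pparg, a lipid-sensing nuclear receptor gene, had 0, 0.284 and 0.118 CPM in non-canonical and 6.41, 5.91 and 5.31 CPM in canonical ITD libraries, against 0.385, 6.75 and 2.21 CPM in non-canonical and 6.30, 8.82 and 6.09 CPM in canonical WT libraries. The subsets overlapped in WT through the non-canonical library of batch C, with a difference of -1.18 ± 0.76 (edgeR adjusted p = 0.281). Without that library Pparg was called lower in WT as well, at -2.47 (edgeR adjusted p = 0.0466), so its call in ITD alone rests on 1 library. The genotype difference of Pparg was -4.18 ± 1.28 (edgeR unadjusted p = 0.00444, adjusted p = 0.773). Dapk1, a death-associated kinase gene, had 76.8, 106 and 102 CPM in non-canonical and 30.7, 43.4 and 43.0 CPM in canonical ITD libraries, against 44.4, 36.5 and 43.3 CPM in non-canonical and 25.2, 39.6 and 35.6 CPM in canonical WT libraries. It was called higher in ITD, at 1.28 ± 0.20 (edgeR adjusted p = 9.04e-05), and its genotype difference was 0.97 ± 0.27 (edgeR unadjusted p = 0.00228, adjusted p = 0.558).

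Called in WT alone were Rgs16, a regulator of G protein signalling, and Rab37, a small GTPase gene. Rgs16 had 0.987, 3.07 and 3.83 CPM in non-canonical and 0.916, 2.51 and 3.16 CPM in canonical ITD libraries, against 0.818, 7.53 and 10.5 CPM in non-canonical and 0.312, 0.0958 and 0 CPM in canonical WT libraries. The RNA of Rgs16 in canonical cells was above that of WT in every ITD library, and the genotype difference was -5.21 ± 1.24 (edgeR unadjusted p = 0.000553, adjusted p = 0.387). Rab37 had 3.46, 2.33 and 4.01 CPM in non-canonical and 2.52, 3.50 and 3.28 CPM in canonical ITD libraries, against 8.38, 9.60 and 6.64 CPM in non-canonical and 1.56, 2.06 and 0.365 CPM in canonical WT libraries, with a genotype difference of -2.55 ± 0.63 (edgeR unadjusted p = 0.000726, adjusted p = 0.411). DESeq2 called both, at adjusted p-values of 0.0167 for Rgs16 and 0.0239 for Rab37.

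**Figure D5:**
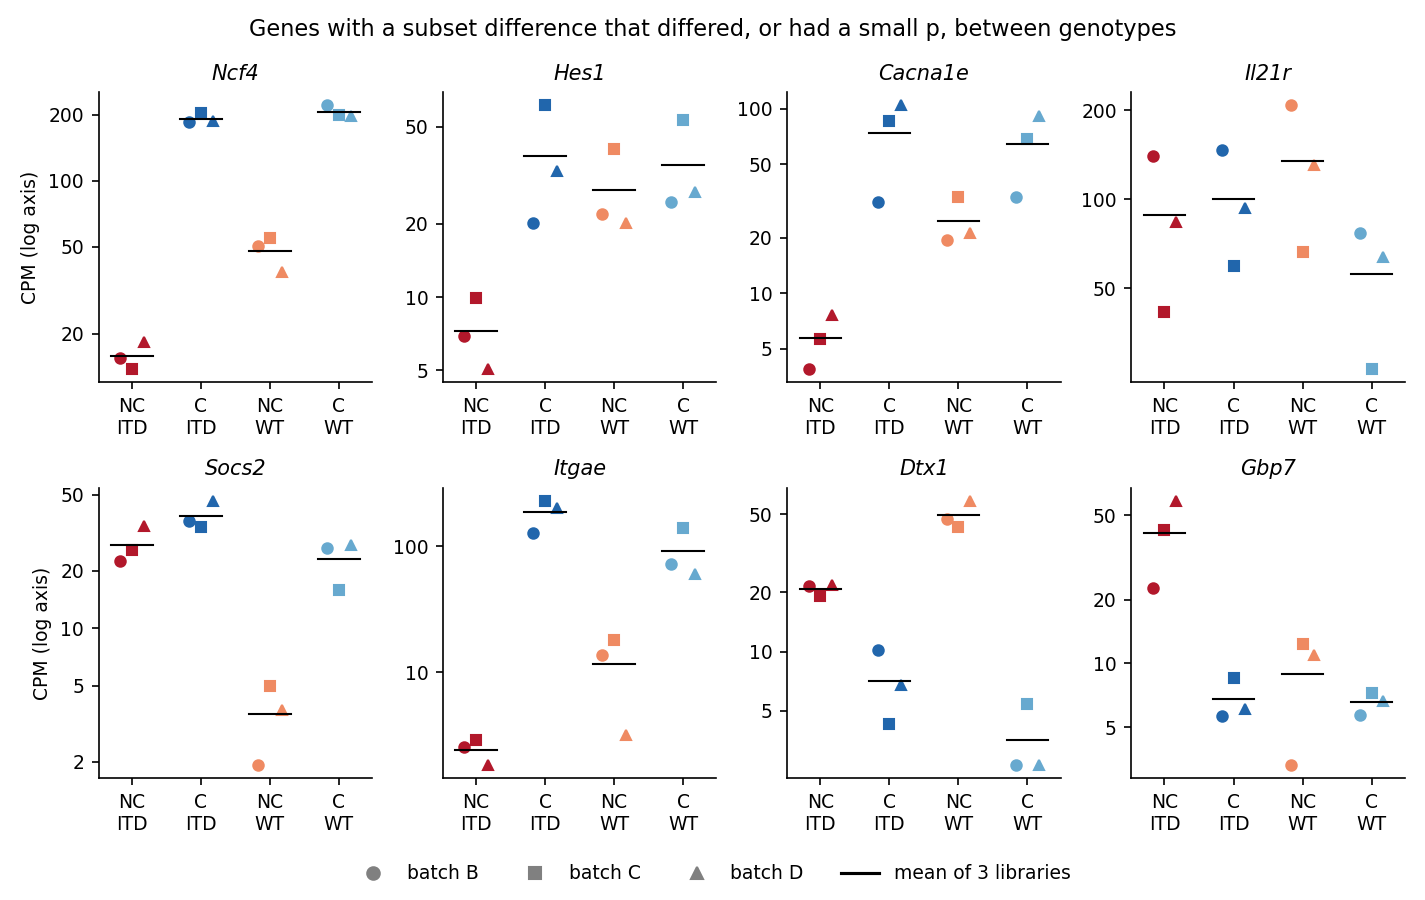
Level of 8 genes in each CD8+ library, in CPM on a log axis, by subset and genotype; symbols give the batch and the line the mean of 3 libraries. For Ncf4, Hes1, Cacna1e and Itgae the NC_CD8 ITD points lie below the NC_CD8 WT points, for Socs2 and Gbp7 above them.

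Markers of other cell types were measured in the same libraries. Summed over 15 T cell markers, non-canonical ITD libraries held 37.6 to 47.5 CPM and canonical ones 31.1 to 36.2 CPM, with none called, while non-canonical WT libraries held 84.1 to 189.5 CPM and canonical ones 19.8 to 32.2 CPM, with 4 called higher (2 to 8 when 1 WT library was left out). Erythroid markers summed to 10.1, 400.5 and 223 CPM in the non-canonical WT libraries of batches B, C and D, and to 14.2 to 57.1 CPM in non-canonical ITD libraries. Of 20 monocyte and macrophage markers, 4 were called higher and 3 lower in ITD (6 lower with the block), against 12.9% and 14% of all genes (22.1% lower with the block). Csf1r and Ccr2 were among the higher ones, while Lyz2, the macrophage lysozyme gene, had a difference of -2.79 ± 0.67, with 15.4% of its 50-base words found in another gene, chiefly Lyz1. C1qa, a macrophage complement gene, had 0.432, 8.69 and 5.78 CPM in non-canonical and 0.153, 9.62 and 7.34 CPM in canonical ITD libraries. Of 12 B cell markers, Cd79b was called higher, by 3.00 ± 0.33, and 2 were called lower, against 12.9% and 14% of all genes. With the block 2 B cell markers were called higher, against 21.1% of all genes. The lower count was 0 or 1 in 5 of the 6 fits that left out 1 ITD library. Summed over 12 NK cell markers, non-canonical ITD libraries held 339 to 416 CPM and canonical ones 137 to 199.8 CPM, while non-canonical WT libraries held 358 to 489 CPM and canonical ones 130.3 to 147 CPM. In ITD, 2 of the 12 were called higher and 1 lower, against 12.9% and 14% of all genes. Klrd1, the CD94 gene, was higher by 4.26 ± 0.44, with 228, 328 and 283 CPM in non-canonical and 27.2, 7.64 and 9.37 CPM in canonical ITD libraries. Klre1, a receptor gene of the same family, was higher by 1.21 ± 0.42, and Klrk1, which encodes NKG2D, was lower, at -0.75 ± 0.24 (edgeR adjusted p-values 0.038 and 0.0244). The call of Klre1 was lost without an ITD library of batch C or D, of either subset (edgeR adjusted p from 0.0704 to 0.114), and that of Klrk1 without the canonical library of batch B or D or the non-canonical library of batch C or D (edgeR adjusted p from 0.0693 to 0.106). Ncr1, the defining NK receptor gene, had 0, 1.93 and 0 CPM in non-canonical and 0.0763, 0.837 and 0.597 CPM in canonical ITD libraries. The part of these cell types in the differences above was not tested.

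Genes that respond to tissue handling were also compared. Of 17 early response genes, 4 were called higher in ITD (7 higher and 3 lower with the block). The shares of all genes were 12.9% higher, and 21.1% higher and 22.1% lower with the block. Zfp36, which encodes an mRNA-decay factor, had 4586, 6440.3 and 6050.4 CPM in non-canonical and 2302, 2452 and 2925 CPM in canonical ITD libraries, a difference of 1.15 ± 0.16 (edgeR adjusted p = 2.47e-05). Ier2 was higher by 1.504 ± 0.22, and both genes were called higher in WT. The part of handling in the levels of Il1b, Ptgs2 and the maturation genes was not tested.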

How the data were processed

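RNA was measured in flow-sorted splenic dendritic cells by low-input RNA sequencing (SMART-seq v4), per the labels' protocols, and the authors deposited raw read counts per gene. Reads had been converted with bcl2fastq 1.8.4 and aligned with Bowtie2 to mm10, and DESeq2 1.8.2 is also named, per the submitters' processing notes. RNA was isolated with PicoPure columns, in some libraries after Trizol, per the labels' protocols, which do not say in which. The counter, annotation and strand setting are not among the sources used here, so reads of a gene and an overlapping antisense gene may not be separable. Replicates are independent experiments, per the series' design text.

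Counts of 39017 genes in 24 libraries of 10 groups were filtered with edgeR's filterByExpr (minimum count 10), which left 18093 genes, scaled by TMM and fitted with edgeR 4.0.16 (R 4.3.3) in 1 quasi-likelihood model of group means, with no block. Contrasts were NC_CD8 minus C_CD8 in ITD, the same in WT, and the first minus the second. Rows with no gene symbol held 0.598% of counts and were tested but not named. Libraries of the same batch deviated together (correlations of NC_CD8 and C_CD8 deviations of 0.470, 0.246 and 0.207 in ITD and 0.388, 0.252 and 0.193 in WT for batches B, C and D), so the batches, which the labels give, pair the libraries. The common biological coefficient of variation was 0.317, and 0.174 with the block. Named genes were the markers, the largest differences among protein-coding genes of at least 10 CPM whose groups did not overlap, the list members with the smallest adjusted p, and the genes with the smallest p of the genotype difference. The members, lists and this rule were chosen with earlier results of these data known. The share of 50-base words that a gene has in common with other genes was computed from the reference transcripts. The fits were tested on simulated counts. Alternatives were DESeq2 1.42.0, its size factors in edgeR, no filter, fewer libraries in the fit, the batch block, each library left out and, added after seeing the data, the batch B libraries left out. Depth was 13936950 to 21270127 counts per CD8+ library, and intervals and tests cover these libraries only.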

Additional observations from a re-analysis of the deposited data

Results flagged for a closer look

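The difference between non-canonical and canonical cells in Ncf4 differed between the genotypes by the test of that difference itself, at -1.49 ± 0.22 on the log2 scale (ITD minus WT; edgeR adjusted p = 0.0497 over 18093 genes). Ncf4 was lower in non-canonical than in canonical cells in all 3 ITD and all 3 WT pairs, and it was lower in non-canonical ITD than in non-canonical WT libraries in 3 of 3 batches. The call was lost in 10 of the 12 fits that left out 1 library, in the fit of the 12 CD8+ libraries with or without the batch block, with no filter on low counts and without the batch B libraries.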

How the results depend on the processing

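The number of genes called between the subsets in ITD stayed within 1.5 times of 4877 under DESeq2 (5467), its size factors (4920), no filter on low counts (4266), fits on the 12 CD8+ libraries (4316) or on the 6 ITD libraries (3514), and without the batch B libraries (4715), a setting chosen after seeing the data. With the replicate block on experiment batch in the fit of all 24 libraries, the calls were 7817 in ITD, 7603 in WT and 6133 in both genotypes in the same direction. With 1 library left out at a time they ranged from 3557 to 4994 in ITD, from 3024 to 4052 in WT and from 2636 to 3525 in both.

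The number of genes whose subset difference differed between genotypes was 1, and it was 40 under DESeq2, 4 with the replicate block in the fit of all libraries, and 0 with no filter, in the 12-library fit, with the block in the groups compared only, and without batch B; leaving out 1 library gave 0 to 16. The causes of these moves were not tested. A set of genes that includes some not named here was followed through all settings, and the ITD difference of Flt3 is not among the values that follow. No difference in this set that was called, with or without a change of setting, changed its sign, while 182 values of differences that were not called did. In ITD, 2425 values of the set kept their side of the threshold, 84 lost it and 21 gained it, and in WT these numbers were 2422, 74 and 48. Beside those with a blocked value in the text, neither the block in the fit of all libraries nor that in the groups compared only changed a call that the text states for a single gene. Of the counts per list, 222 moved by over 1.5 times and 1626 did not.

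The test of the genotype difference joins the error of 4 groups of 3 libraries. Between 3.27% and 8.02% of the 50-base words of Clec9a, Cd8b1, Clec4a2, Psme1, Itgax, Fcgr2b, Mx1, Socs2, Rrm2 and Itga1 occur in other genes.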
